A study of Arabidopsis thaliana with 4 samples.

Results

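Plates TA01 to TA20 hold the tiles that come first by name in set TA, a numbered series of DNA fragments on this Arabidopsis thaliana tiling array. Members were chosen by name, as every tile called TA with a plate number from 01 to 20, a row letter and a column number, that had a value in both replicates. Of 1912 such tiles 1911 had values (the empty tile was TA13G05), which is 8.79% of the 21743 tiles of the series. The choice of these plates, and of the start of TA01 as a region to set apart, was made with the H4K20me1 log ratios of these same tiles in view. The levels and calls below are descriptions of that choice and support nothing by themselves.

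The material was seedlings of ecotype Col-0, 10 days old and untreated, grown in liquid medium at 22 °C with a 16 h photoperiod. Chromatin DNA precipitated with an antibody against H4K20me1 (IP) was set against unselected chromatin DNA (INPUT) in 2 replicates, I and II, and each replicate went onto 2 arrays with exchanged dyes. The deposited columns of each pair were identical, so n = 2 throughout. Nothing in the labels tells whether the replicates were separate cultures, and the spread between them may be technical. In whole seedlings, more cells with the mark and more of the mark per cell cannot be told apart.

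H4K20me1 is histone H4 with a single methyl group on a lysine of its tail. In animals the mark is placed by a dedicated SET-domain methyltransferase and is linked to chromosome condensation and the cell cycle. In Arabidopsis nuclei it has been seen by immunostaining at condensed, repeat-rich heterochromatin. A ChIP-chip log ratio compares the amount of a fragment in the IP with its amount in the INPUT, and chromatin that carries the mark gives a higher ratio of IP over INPUT. The table gives neither the log base nor the channel on top. The direction was taken as likely IP over INPUT, because over the whole series the upper tail was the longer. The highest 1% of values lay at 1.54 or more in replicate I and 1.35 or more in replicate II, and the lowest 1% lay at or under -1.16 and -1.12, relative to each replicate's median. If the sign were turned, higher would read lower throughout and the reverse. Every log ratio below is given relative to the median of its replicate over all tiles, namely -1.42 for replicate I and -1.15 for replicate II.

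Most plates of TA01 to TA20 had medians under that of the array, and the start of TA01 was very high. The leading 19 wells of TA01 had median log ratios of 1.79 and 1.53 in the 2 replicates, against -0.145 and -0.118 in the other 1892 tiles of these plates. The difference was 1.79 ± 0.202 (SD, n = 2). After that start the values fell back to near the array's median within the next rows of the same plate. Both medians of a plate were under 0 in 17 of the 20 plates. The share over all 231 plates is not given here, so this count is only a description. From the other tiles outside the stretches of consecutive high plates, TA01 to TA20 differed by only -0.0318 ± 0.00446 (SD, n = 2). A moderate rise in TA19 and isolated high or low tiles were the main further features.

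The start of TA01 was defined as the wells called higher without a gap from A01 on. A call is an adjusted p of at most 0.05 in limma, fitted on both replicates of all tiles of the series. How many wells pass depended on the processing, for reasons that were not tested. With both replicates brought to equal median absolute deviations, 3 of the 19 wells kept their call, and with plate means in place of the median as zero 0 did, although all 19 stayed above 0 under both settings. In replicate I the wells A01 to A06 read 1.62, 1.74, 1.88, 1.67, 2.08 and 2.32 above the median. In replicate II the same wells read 1.46, 1.59, 1.53, 1.61, 1.49 and 1.74. A06 was the highest of these wells in both replicates. The peak was at A07 with 2.57 and 2.36 and at A08 with 2.68 and 2.39 in replicates I and II. A09 and A10 gave 2.43 and 2.14 in replicate I and 1.92 and 1.53 in replicate II. A dip followed at A11, with 1.44 in replicate I and with 0.739 in replicate II, the only well of the 19 that was not above 1 in both.

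A shoulder then ran through row B. From A12 to B03 replicate I gave 1.79, 1.99, 1.33 and 2.07, and replicate II gave 1.26, 1.49, 1.02 and 1.73. Wells B04 to B06 of TA01 were almost level, with 1.74, 1.70 and 1.70 in replicate I and with 1.42, 1.53 and 1.50 in replicate II. The peak at A07 and A08, the dips at A11 and B02 and the rise at B03 were present in both replicates.

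**Figure D1:**
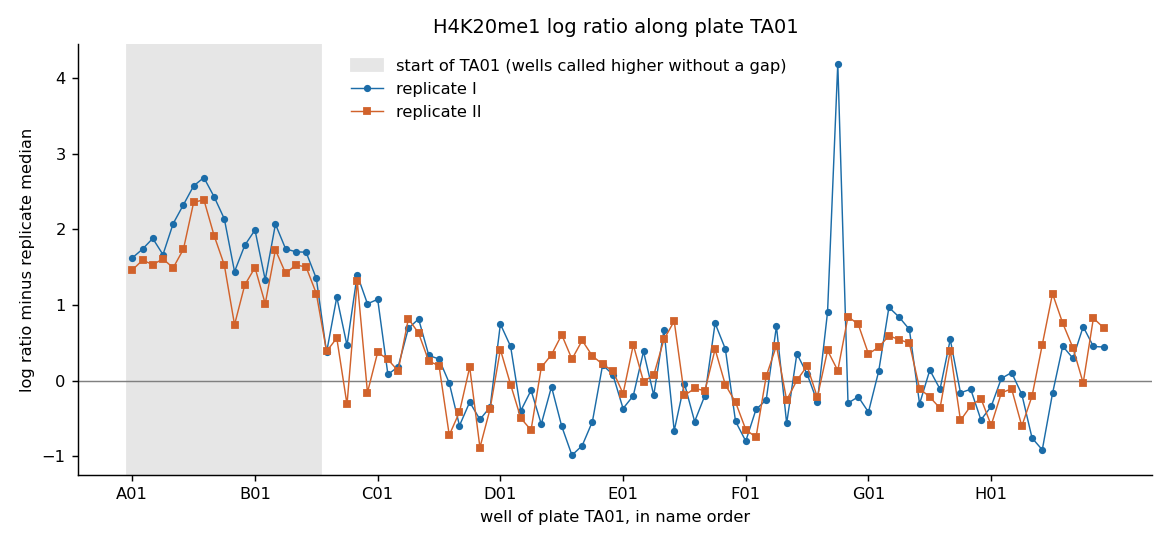
Log ratio minus the replicate median (vertical axis) for the 96 wells of plate TA01 in name order (horizontal axis), with replicate I as blue circles and replicate II as orange squares. The shaded leading 19 wells lie between 0.739 and 2.68, and the spike in row F, at 4.19, is in replicate I only.

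The last well inside the start was B07, with 1.35 in replicate I and with 1.15 in replicate II, and the well just outside it was B08, with 0.373 and 0.387. The drop between these neighbours was shared by both replicates. High wells did not end there. B09 had 1.10 in replicate I and 0.563 in replicate II, and B11 had 1.40 and 1.32. Both were called higher, while B10 between them had 0.467 and -0.314. B12 read 1.02 in replicate I and -0.156 in replicate II, and C01 read 1.08 and 0.376, so the replicates parted in this stretch. C04 and C05 were still above the median at 0.690 and 0.816 in replicate I and 0.818 and 0.629 in replicate II. From C08 to C12 of TA01 the values were under 0, with the exception of the 0.179 of C10 in replicate II.

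By rows the same decline showed in medians over 12 wells. Row A had 1.98 in replicate I and 1.56 in replicate II, and row B had 1.37 and 1.24. Row C had 0.133 and 0.189. Rows D to H had medians between -0.262 and 0.0687 in replicate I and between -0.0321 and 0.251 in replicate II. The 77 wells of TA01 outside the start had medians of -0.0304 and 0.175 in replicates I and II, against -0.147 and -0.126 in TA02 to TA20. That difference came to 0.116 in replicate I and 0.302 in replicate II, on average 0.209 ± 0.131 (SD, n = 2).

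Replicate I exceeded replicate II in all 19 wells of the start, by 0.0570 to 0.701 and by 0.357 on average. The mean over the start came to 1.91 in replicate I and 1.55 in replicate II. Over all tiles of the series the standard deviation of replicate I was 1.13 times that of replicate II. Across the 19 wells the replicates correlated with Pearson's r = 0.884 and Spearman's rho = 0.747, given as a description, since neighbouring wells are not independent. The SD between the 19 tiles came to 0.392 in replicate I and 0.393 in replicate II.

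The mean over the start, 1.73 ± 0.252 (SD of replicates, n = 2), was set beside all unbroken windows of 19 wells within a plate. Of 16989 such windows in the series, 28 had a higher mean, and all 28 were in TC29, a plate of another set. Windows over an empty well were left out in every plate, the high plates included, so further high windows may be missing. The start was itself picked for its calls, so this rank is only a description. Within TA02 to TA20 the highest window without an empty well had a mean of 0.391 and lay in TA18, beginning at its well number 13. This leaves out any window over D04 of TA19, for which no value was analysed here. With 1 empty well allowed, a setting chosen after the values were seen, the highest window ran from C08 to E02 of TA19, with a mean of 0.676 ± 0.0580 (SD, n = 2) over 18 wells. Only 6 single tiles of TA01 to TA20 outside the start had a mean above the lowest of the start, 1.09 at A11.

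**Figure D2:**
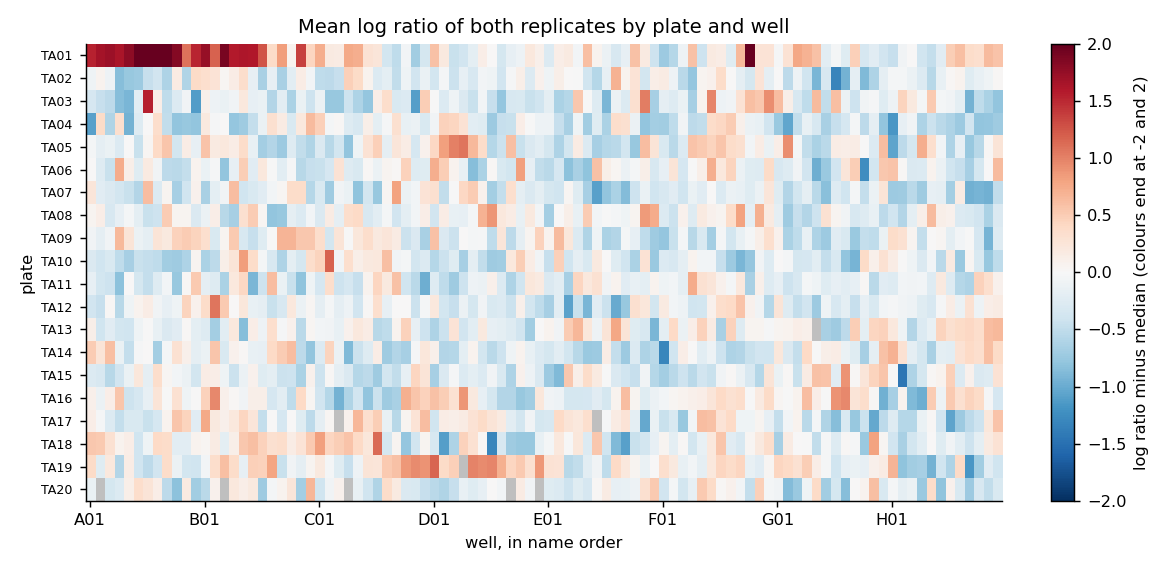
Mean log ratio of both replicates minus the median, by plate (vertical axis, TA01 at the top) and well in name order (horizontal axis), from blue for low to red for high, with wells without a value in grey. The colours end at -2 and 2. The dark red run at the upper left is the start of TA01, and the paler red run in rows C and D of TA19 has a mean of 0.726.

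All 1911 tiles together had medians of -0.140 and -0.115 in replicates I and II, against 0.0169 and 0.0125 in the other 19832 tiles of the series. The difference was -0.142 ± 0.0206 (SD, n = 2) and was negative in both replicates. It was -0.0318 ± 0.00446 (SD, n = 2) against the 16279 other tiles outside the stretches of consecutive high plates on this array, which are TC17 to TC30, TA35 to TA51 and TA21 to TA30. TA52 to TA99, the later plates of the same set, had medians of 0.0412 and 0.0159, and the difference of TA01 to TA20 from them was -0.156 ± 0.0354 (SD, n = 2). TA21 to TA30, the plates that follow directly, had 0.485 and 0.318, and the difference from them came to -0.624 in replicate I and -0.432 in replicate II. No test was run on these differences, since the plates were chosen with the values known. Besides, 2 replicates cannot reach a p of 0.05 in an exact test.

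Of the 1911 tiles, 52 (2.72%) were called higher than the median, where 8.24% of all tiles of the series were, and 86 (4.50%) were called lower, where 3.88% were. In the 16279 other tiles outside the high stretches, 2.01% were called higher and 4.58% lower. The lower shares were thus nearly equal. The higher share of TA01 to TA20 was above 2.01% only with the start of TA01, which was picked for its calls, and was 1.74% without it. Nothing is read from these shares, because the tiles were chosen with this contrast known. The start of TA01 held 19 of the 52, and 4 more, TA01F10 among them, were in the rest of that plate. A call does not demand that the replicates be alike. The weaker replicate was under 0.5 in size in 5 of the 52 higher and 7 of the 86 lower tiles. In 3 tiles of each direction the replicates differed by over 1. Outside the start 33 tiles (1.74%) were called higher. Values above 1 in both replicates were found in 22 tiles (1.15%), where 2.83% of the series and 0.350% of the tiles outside the high stretches had them, and 18 of the 22 were in the start. Under -1 in both replicates lay 11 tiles (0.576%), where 0.419% of the series and 0.485% of the tiles outside the high stretches did. Tiles above 0 in both replicates made up 22.82% of TA01 to TA20, against 34.67% of all other tiles and 24.40% of those outside the high stretches. Tiles under 0 in both made up 42.49%, against 32.78% and 38.79%. Before centring, 17 of the 1911 tiles had a deposited log ratio above 0 in both replicates, and 16 of these were in the start of TA01.

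Plate by plate, TA01 had the highest medians, 0.247 in replicate I and 0.349 in replicate II. It was the 1 plate of the 20 called higher by limma on plate medians, where 22.9% of all 231 plates were, and 7 of the 20 were called lower, where 25.5% were. TA01 had rank 40 from the top among the 231 plates. Its level includes the start, and its other 77 wells had medians of -0.0304 and 0.175. With the median of set TA as zero, TA01 lost its call and 15 of the 20 plates were called lower. With the mode as zero 1 plate was called lower, and at an adjusted p of 0.01 the limma count of lower plates was 0 (9 by unadjusted p of 0.05) and TA01 was not called. The next plates were low. TA02 had -0.235 in replicate I and -0.147 in replicate II, and TA03 had -0.143 and -0.236. TA04 was the lowest of the 20 on average, with -0.412 and -0.204. Its mean of -0.308 ± 0.147 (SD, n = 2) had rank 224 from the top among the 231 plates of the series. TA05 came closer to the array's median, with -0.0850 and -0.161.

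TA06 and TA07 were low again, with -0.225 and -0.285 in replicate I and with -0.146 and -0.240 in replicate II. In TA08 the replicates parted, with -0.240 in replicate I and with -0.0550 in replicate II. TA09 had -0.0824 and -0.152. In TA10 replicate I gave -0.323, its lowest value after TA04, and replicate II gave -0.141. The plates called lower were TA02, TA03, TA04, TA06, TA07, TA10 and TA15, all but TA15 of them among TA02 to TA10.

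TA11 and TA12 had -0.128 and -0.0715 in replicate I and -0.140 and -0.223 in replicate II. TA13 lay at -0.0884 and -0.00277, almost at the array's median in replicate II. TA14 had -0.295 and -0.111, and TA15 had -0.179 and -0.189. These plates stayed under the median in both replicates.

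The plates from TA16 to TA19 were near the median. TA16 had -0.0168 in replicate I and 0.0193 in replicate II, the only plate with medians of opposite sign. TA17 had -0.0451 and -0.114, and TA18 had -0.0185 and -0.00619. TA19 had 0.0505 and 0.0773 and was the only plate besides TA01 with both medians above 0. Together the 381 tiles of TA16 to TA19 had medians of 0.00313 and -0.00451, against -0.200 and -0.156 in TA02 to TA15, a difference of 0.177 ± 0.0363 (SD, n = 2). This grouping was made after the values were seen. TA20, the last plate before the high stretch that begins with TA21, was low at -0.139 and -0.180.

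**Figure D3:**
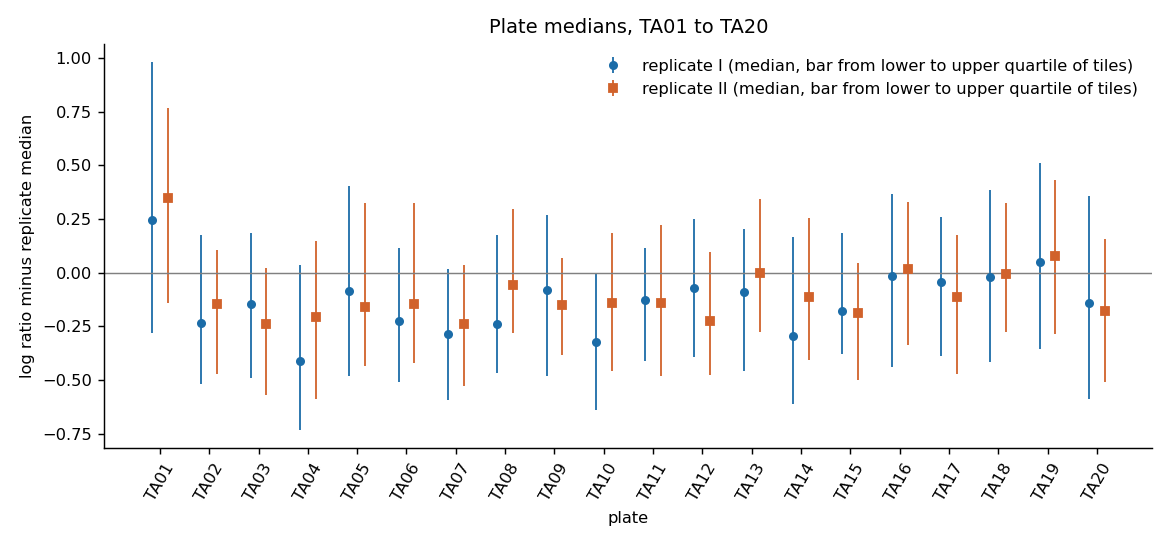
Median log ratio of each plate minus the replicate median (vertical axis) for TA01 to TA20 (horizontal axis), with replicate I as blue circles and replicate II as orange squares and bars from the lower to the upper quartile of the plate's tiles. TA01 stands highest at 0.247 and 0.349, and the bars of neighbouring plates overlap.

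Outside TA01 the SD between tiles (mean of both replicates) ran from 0.341 in TA12 to 0.481 in TA03, and was 0.795 in TA01. Plate medians outside TA01 ran from -0.412 to 0.0505 in replicate I and from -0.240 to 0.0773 in replicate II. Across the 20 plates the medians of the replicates correlated with Pearson's r = 0.740 and Spearman's rho = 0.501. Without TA01 these were 0.538 and 0.418 over 19 plates. The plates share arrays and hybridisations, so the correlations are descriptions.

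After the start of TA01, the longest rise was in TA19. From C08 to D12, a range picked after the values were seen, all 16 wells with a value were above 0 in both replicates. They averaged 0.739 and 0.713 in replicates I and II (0.726 ± 0.0185, SD, n = 2). Of these wells 8 were called higher. C07 and E01 at the ends were also above 0 in both replicates. With them the means were 0.675 in C07 to D03 and 0.674 in D05 to E01, over 9 wells each. C10 to D01 had 0.844, 0.899, 1.03 and 1.15 in replicate I and 0.877, 0.988, 0.764 and 1.16 in replicate II. D02 and D03 had 0.107 and 0.348 in replicate I and 0.669 and 0.616 in replicate II, a dip that was the deeper in replicate I. D05 to D07 had 0.880, 0.934 and 1.03 in replicate I and 1.11, 0.971 and 0.925 in replicate II. Both replicates had a broad, moderate rise at the same place on this plate. Its highest mean, 1.16 in D01, was above the 1.09 of A11 in TA01 and under the other 18 means of the start.

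Another run of called wells lay in TA05, from D02 to D04, with 1.14, 1.27 and 0.936 in replicate I and with 0.501, 0.757 and 1.20 in replicate II. D05 and D06 after it were 0.662 and 0.124 in replicate I and 0.628 and 0.605 in replicate II. D07 had -0.398 and -0.757, so the rise ended there in both replicates. The start of TA01, C10 to D01 and D05 to D07 of TA19 and D02 to D04 of TA05 were the 4 runs of at least 2 consecutive wells called higher. They held 29 of the 52 higher tiles (55.77%), while 23 stood alone. Outside the start, which was defined as a run, 10 of the 33 higher tiles (30.30%) were in runs.

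The lower tiles came from 19 of the 20 plates (TA01 had 0), and 65 of the 86 stood alone, while 21 (24.42%) were in 10 runs. The longest, H09 to H11 of TA07, had 3 wells with -1.22, -1.36 and -1.22 in replicate I and with -0.698, -0.512 and -0.688 in replicate II. In the series as a whole 37.56% of lower tiles and 78.35% of higher tiles stood in such runs, counted within plates.

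Wells under 0 in both replicates formed 6 longer runs of at least 8 wells. These were G02 to G12 of TA02, D07 to E03 of TA03, A02 to A11 of TA10, C03 to C10 of TA15, C01 to C09 of TA16 and G06 to H04 of TA17. The mean of the 10 wells in TA10 came to -0.546 in replicate I and -0.524 in replicate II, although none of them was called lower by limma one by one. In TA02 the 11 wells had -0.703 and -0.458, and 4 of them were called lower. No count of such runs in other plates is given here, so their number is only a description.

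Outside the start, the 10 tiles with the highest means and the same sign in both replicates came from 7 plates. TA01F10 led with 4.19 in replicate I and with 0.134 in replicate II. Its difference of 4.06 between replicates was the largest of all 21743 tiles of the series. Its neighbours F09 and F11 had 0.908 and -0.296 in replicate I, so the spike was confined to 1 well of 1 replicate. The mean of TA01F10 was 2.16 ± 2.87 (SD, n = 2), a spread larger than the mean itself, so its high level was not shared by the replicates. The tile was nonetheless called higher. It lost that call when limma was run with a trended and robust prior, without centring or with equal median absolute deviations. The call was also lost with plate means or the median of set TA as zero. It was kept with the mode as zero and at an adjusted p of 0.01.

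TA03A07 came next and was high in both replicates, with 1.69 in replicate I and with 1.41 in replicate II. The wells on either side did not share this height, with -0.0876 and -0.336 for A06 and 0.498 and -0.243 for A08. TA01B11 had 1.40 and 1.32, as given above. TA10C02 had 1.06 and 1.30, between C01 with 0.450 and 0.445 and C03 with -0.279 and 0.185. TA03A07 and TA10C02 stood as single peaks in both replicates. TA01B11 did so in replicate II only, since B09, B12 and C01 near it were also above 1 in replicate I.

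TA18C07 had 1.52 in replicate I and 0.732 in replicate II, TA12B02 had 1.38 and 0.764, and TA03E11 had 1.57 and 0.476. The others of the 10 were TA19D01, TA05D04 and TA05D03, in the runs described above. Of the 10 tiles, 3 had a neighbour called higher, and the median over all their neighbours was 0.377.

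The 10 lowest tiles had means from -1.44 to -1.10 and came from 8 plates. TA15H02 had -1.15 in replicate I and -1.73 in replicate II, beside H01 with 0.429 and -0.446 and H03 with -0.443 and -0.803. TA02G07 had -1.56 and -1.09 and was followed by G08 with -0.998 and -0.899, also called lower. TA14F01 had -1.08 and -1.54.

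TA18D07 had -1.23 and -1.37 in replicates I and II, although D06 before it was at 0.131 and -0.0851. TA06G10 had -1.21 and -1.27, and TA04H01 had -1.23 and -1.10. TA19H09 was deeper in replicate II, with -0.815 in replicate I and with -1.53 in replicate II. TA03A12, TA18D02 and TA03C11 had means of -1.11, -1.10 and -1.10. Of the 10, TA02G07 and TA04H01 had a neighbour called lower, and the median over all neighbours of the 10 was -0.318.

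Over the 1911 tiles the replicates had a Pearson's r of 0.402 with a Spearman's rho of 0.352, and without the start r was 0.324. This r was 0.441 in TA52 to TA99 and 0.353 in all other tiles outside the high stretches. The start, whose wells were picked for high values in these replicates, is not set against the other tiles here. Neighbouring tiles are not independent, and all tiles share the arrays, so these are descriptions. Within single plates r ran from 0.140 in TA20 to 0.727 in TA01, with a median of 0.319. The value of TA01 includes the start, and over its other 77 wells r was 0.306. TA03 had 0.553 and TA19 had 0.509, while TA09, TA06 and TA02 had 0.144, 0.151 and 0.155.

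**Figure D4:**
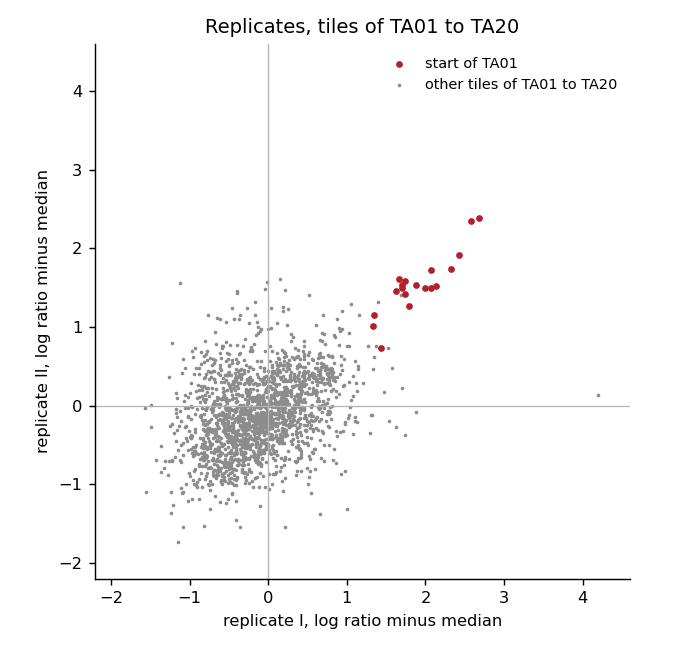
Log ratio minus the replicate median in replicate I (horizontal axis) and replicate II (vertical axis) for the 1911 tiles of TA01 to TA20, with the 19 wells of the start of TA01 in red. The red points have r = 0.884, and the grey point far to the right is TA01F10 at 4.19 and 0.134.

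The SD of the difference between replicates was 0.595 in TA01 to TA20, against 0.560 in all other tiles and 0.587 in those outside the high stretches. Differences over 2 occurred in 6 of the 1911 tiles (0.314%), against 0.237% of all other tiles and 0.289% of those outside the high stretches. After TA01F10 the largest was in TA04B11, with -1.13 in replicate I and with 1.56 in replicate II.

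Stretches in which the replicates lay on opposite sides of the median were also found, 6 of them with at least 5 consecutive wells. In D05 to D10 of TA01 replicate I averaged -0.607 and replicate II 0.378 over 6 wells. In F06 to F12 of TA20 replicate I averaged 0.588 and replicate II -0.472 over 7 wells. The others were C12 to D04 of TA06, F02 to F06 of TA14, E10 to F03 of TA16 and B11 to C04 of TA12. In 4 of the 6, replicate II was the higher. No count of such stretches in other plates is given here.

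Tiles whose names follow each other had related values. Between next wells r came to 0.447 in replicate I and 0.445 in replicate II over 1882 pairs, and 0.370 and 0.382 without the start of TA01. Pairs that cross the end of a row, such as A12 and B01, had 0.416 and 0.435, and pairs within a row had 0.450 and 0.446. With wells ordered down the columns, next wells had 0.136 and 0.0696, where pairs that cross from the foot of a column to the top of the following one, such as H01 and A02, are included. The correlation was larger along the order of names, row by row, than along the order down the columns of the plate.

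This relation was short. With the start kept, the average r of the replicates was 0.446 for next wells, 0.2396 for wells 2 apart and 0.09975 for wells 12 apart. TA52 to TA99, from which nothing was left out, had close values of 0.446, 0.243 and 0.0933. Without the start, TA01 to TA20 had 0.376, 0.145 and 0.0301. With plate medians removed, wells 12 apart in TA52 to TA99 had -0.00489 and 0.008 in replicates I and II. TA01 to TA20 without the start then had 0.0275 and -0.0419. The values that follow are without the start and with plate medians kept. Between a well of replicate I and its neighbour in replicate II, or the reverse, r was 0.152 on average for next wells and 0.127 for wells 2 apart. Next wells also shared the difference between replicates, with r = 0.330, while for wells 2 apart this r was 0.0283. Next wells shared more within a replicate than between replicates, and for wells 2 apart the values within and between replicates were close.

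**Figure D5:**
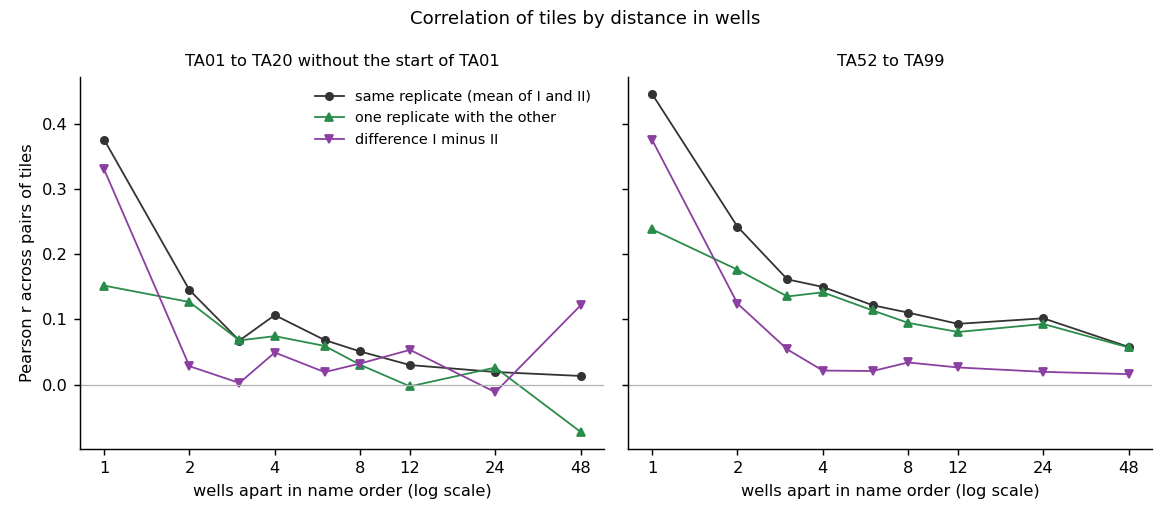
Pearson's r across pairs of tiles (vertical axis) against their distance in wells (horizontal axis, log scale), for TA01 to TA20 without the start of TA01 (left) and TA52 to TA99 (right). The difference between replicates (purple) is at 0.0283 for wells 2 apart on the left, where r between replicates (green) is 0.127.

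Over TA02 to TA20 the medians of the 8 rows ran from -0.238 to -0.0362 in replicate I and from -0.224 to -0.0313 in replicate II. The medians of the 12 columns ran from -0.293 to -0.0485 and from -0.200 to -0.0548. Row A of TA01 had the medians of 1.98 and 1.56 given above, against -0.131 and -0.224 in row A over the other 19 plates.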

How the data were processed

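IP and INPUT DNA were compared on 4 arrays of 2 colours, a dye swap per replicate. The values the authors deposited are called a score here and read as log ratios, since they run above and below 0 and no source names a unit, base or direction. For scanner, background correction, normalization, build, tile positions and tile sequences the sources used here give nothing. The columns of a dye swap were identical and counted as 1 value per replicate, which was centred on its median over the 21743 tiles.

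Replicate means were tested against 0 for each of the 21743 tiles, and for the medians of all 231 plates, with limma 3.58.1 under R 4.3.3 (intercept model, eBayes defaults, two-sided) and Benjamini-Hochberg adjustment over all of them. Tested on simulated data with 2 replicates, it found large known shifts, but its prior varied between draws and more of its calls were false than the threshold names. Python 3.11.15 with numpy 2.4.6, pandas 2.3.3, SciPy 1.17.1 and matplotlib 3.10.9 gave the other values.

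Members, lists and rules were chosen with earlier results of these data known. Named are the start of TA01, outside it the 10 highest and 10 lowest mean values of the same sign in both replicates, the wells beside these, and runs. TA16 to TA19, TA19 C08 to D12, runs on the same or opposite sides of the median and pairs of largest difference were picked after their values were seen. The number of arrays limits the precision.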

Additional observations from a re-analysis of the deposited data

How the results depend on the processing

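No paired analysis was possible because the labels give a single group. Counts of tiles and plates depended on where zero was set and how the spread was estimated. Differences between groups of tiles cannot change where 1 zero serves all tiles of a replicate. With plate means as zero they can change. For example, TA01A01 went from 1.54 to 1.10 and TA03A07 from 1.55 to 1.72. These differences were not run under other zeros. Of 81 alternatives for 14 values or counts, 39 stayed near the reported value and 42 moved. For the correlation of replicates, near means within the SD between plates. Without centring, 5 tiles were called higher and 1787 lower, 0 plates higher and 20 lower, 2 tiles were above 1 and 1199 tiles under -1 in both, and the median was -1.41. This setting alone turned named tiles round, with means of -0.193 for TA01A11, -0.109 for TA01B02, -0.0322 for TA01B07, -0.259 for TA03E11, -0.270 for TA05D03, -0.213 for TA05D04, -0.105 for TA10C02, -0.213 for TA12B02, -0.155 for TA18C07 and -0.126 for TA19D01. With the mode as zero, 46 tiles and 1 plate were called lower, 5 tiles lay under -1 in both replicates, and the median was -0.0610. With the median of set TA as zero, 23 tiles and 0 plates were called higher and 15 plates lower, 20 tiles lay under -1 in both, and the median was -0.248. With plate means as zero, limma called 0 tiles higher (190 at an unadjusted p of 0.05) and 0 lower (194 unadjusted), and 6 tiles lay under -1 in both. Equal median absolute deviations gave 3 tiles higher (129 unadjusted), 0 lower (271 unadjusted), 13 plates lower and a start of 3 wells. The prior degrees of freedom that limma estimated for tiles were 21.66 as reported, 4.55 with plate means as zero and 4.25 with equal deviations. A trended and robust prior gave 183 tiles and 12 plates lower. At an adjusted p of 0.01, 27 tiles and 0 plates were higher (1 plate unadjusted) and 17 tiles and 0 plates lower (9 plates unadjusted). Testing only sets TA and TB gave 54 tiles lower, and plate means in place of medians gave 4 plates lower. Limma called 0 plates higher without centring or with set TA as zero, also at an unadjusted p. Single replicates had 54 to 60 tiles above 1 and 42 to 63 under -1, a looser demand than both replicates. The mean of TA01 to TA20 was -0.0900, and the difference from the other tiles was -0.0318 without the high stretches. The highest window of 19 wells in TA02 to TA20 had a mean of 0.676 with 1 empty well allowed, an alternative chosen after seeing the data. The start of TA01 had 10 wells when each had to exceed 1 in both replicates. The correlation between next wells was 0.376 without the start, 0.404 with plate medians removed and 0.103 by column. Of 273 alternatives for the 39 named tiles, 165 kept their call and direction, 98 lost the call and 10 turned. The cause of these shifts was not tested beyond the settings themselves. Signal over background and depth are unknown, as no intensities were analysed here.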
